A study of Mus musculus with 4 samples.

Results

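Cadherins and protocadherins were compared between islet-like clusters grown from cultured pancreatic cells and native islets of Langerhans. The members were the non-control probes whose gene name in the files was Cdh followed by a number, or began with Pcdh. This gave 98 of 55681 probes and 70 of 34821 gene names: 18 classical cadherins (5 of type I and 13 of type II), 35 clustered protocadherins (7 Pcdha, 22 Pcdhb and 6 Pcdhg genes), 12 non-clustered protocadherins and 5 other cadherins. Total RNA of each sample was read on its own single-colour Agilent mouse array, 4 in all and 2 per group. Both groups came from male Swiss albino mice of 10 to 12 weeks, pooled from 2 to 4 animals. The clusters were formed from pancreatic cells resembling mesenchymal stromal cells and collected on day 10, after culture without serum on low-adherence plastic. They had received 0.3 mM taurine on day 3, and 3 mM taurine, 100 mM nicotinamide and the incretin peptide GLP-1 on day 7. The islets carried none of these additions in their labels. Their titles give 48 h in culture whereas their descriptions call them freshly isolated. No undifferentiated starting cells were measured, so the comparison is between clusters and islets and not between clusters and the cells they came from. Whether replicate samples were separate pools is not given in the labels, so a p-value here measures the spread between arrays alone, part or all of which may be technical.

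Cadherins are calcium-dependent adhesion receptors that span the membrane and bind like molecules on a neighbouring cell. Classical cadherins hold cells together by linking to actin through catenins. Cdh1 (E-cadherin) and Cdh2 (N-cadherin) join the endocrine cells of an islet, and Cdh1 also joins acinar and duct cells. Protocadherins have a longer extracellular region, lack the catenin-binding tail and act in recognition and signalling as well as in weak adhesion. The clustered protocadherin genes lie in tandem on mouse chromosome 18, where each variable exon has a promoter of its own. The Pcdha and Pcdhg variable exons are spliced to constant exons shared within the group, and the Pcdhb genes are not.

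Levels are log2 signals from which the 75th percentile of the array was subtracted, so 0 is that percentile, and levels of different probes were not set against each other. Between 59.7% and 63.6% of spots were well above background on each array, none was saturated, and all 4 arrays lay on 1 slide. Pearson's r over genes, which are not independent replicates, was 0.985 for the pair of cluster arrays, 0.989 for the pair of islet arrays and 0.796 to 0.810 for pairs of unlike arrays. A gene was tested when both arrays of a group, or of each group, had a probe of it well above background. Differences are log2 fold changes of clusters minus islets with the standard error (SE) from limma, called at a Benjamini-Hochberg adjusted p under 0.05 over 24596 genes. Of all genes tested, 54.8% were called, 26.6% higher and 28.2% lower in clusters, and the median log2 fold change was -0.10. Scaling to probes well above background on all arrays moved that median to -0.29, and scaling to the array median moved it to 0.09. Where no probe of a gene was well above background in a group, its level there is only a bound and the fold is written as "at least". In these bulk samples fewer cells of a type and less RNA per cell cannot be told apart.

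Of the 70 members, 49 were tested, and of these 23 were higher in clusters, 14 were lower and 12 did not pass. Another 16 members had no probe well above background on any array, and 5 had one on 1 array only. Calls were counted by class. Among 13 classical cadherins tested, 4 were higher and 8 lower, and the class median was -1.36 on the log2 scale (-0.68 under normexp, another background correction, and -0.26 with no filter on dim probes). Among 23 clustered protocadherins tested, 13 were higher and 1 was lower, with a median of 2.40 (0.47 and 0.49 under these settings). The 11 non-clustered protocadherins tested were split between 5 higher and 5 lower, with a median of 0.40 that lay between a high and a low set and was -0.02 under normexp and 0.17 with no filter. Some members entered the test only through the group in which they were bright, so these counts are descriptions. The difference between classes was described and not tested.

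**Figure D1:**
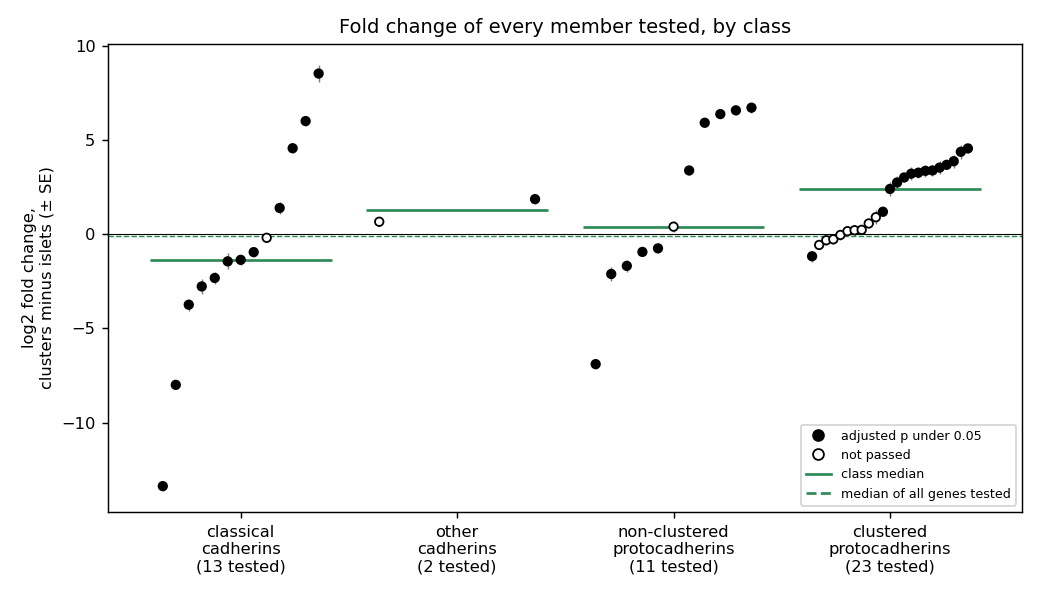
Log2 fold change (clusters minus islets, ± SE of the limma fit) of each member tested, by class, with filled points for an adjusted p under 0.05 and green lines at the class medians. The clustered protocadherins lie mostly above 0, the classical cadherins mostly below, and the other protocadherins are split.

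Restricting the test to members well above background on all 4 arrays left 28, of which 13 were higher, 7 lower and 8 did not pass. Of the 20851 genes tested that way 50.8% were called, 25.3% higher and 25.5% lower. Of 14 clustered protocadherins 8 were higher, none lower and 6 did not pass. Of 6 classical cadherins 2 were higher and 3 lower, and of 6 non-clustered protocadherins 1 was higher and 4 lower, with a median of -0.85. The balance of the non-clustered genes therefore changed with this restriction, because 4 of their 5 higher members were not well above background in islets. With background correction by normexp, which adds an offset and shrinks folds of dim spots, 11 clustered members were still higher.

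Type I cadherins separated by gene, with Cdh1, Cdh3 and Cdh4 lower in clusters and Cdh2 higher. Cdh1, the main epithelial cadherin (probe at mm9 chr8:109193812-109193871), read -6.66 and -6.59 in the clusters and 6.57 and 6.91 in the islets. No cluster array was well above background, and Cdh1 was at least 3944-fold lower in clusters (log2 fold change -13.36 ± 0.24 SE, adjusted p = 1.84e-09). It had the lowest fold change of the 49 members tested, and under normexp it was -9.15. Cdh2, the neural and mesenchymal cadherin, was at 3.40 and 3.28 in the clusters and -1.08 and -1.36 in the islets, well above background on every array. Cdh2 was 23.6-fold higher (4.56 ± 0.24, adjusted p = 2.97e-07), and its other probe gave 5.39. The Cdh1 and Cdh2 signals thus lay on opposite sides in both arrays of each group.

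Cdh3, or P-cadherin, found in epithelia, and Cdh4, or R-cadherin, found in retina and kidney, were not well above background in clusters. Cdh3 read -5.33 and -6.70 in clusters against -2.90 and -3.59 in islets, and was at least 3.90-fold lower (-2.77 ± 0.42, adjusted p = 0.000453). Leaving out cluster replicate 1 gave -3.45 and leaving out cluster replicate 2 gave -2.09. Cdh4 read -6.82 and -7.23 against -2.81 and -3.76, and was at least 3.79-fold lower (-3.74 ± 0.33, adjusted p = 1.17e-05), with -3.04 from its other probe. Both stayed lower under normexp, at -0.68 for Cdh3 and -0.91 for Cdh4. Cdh15, the muscle M-cadherin, did not pass (-0.19 ± 0.23, adjusted p = 0.522) and was well above background on all 4 arrays. Its 4 values lay between -2.86 and -2.52.

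Markers of epithelial cells moved with Cdh1. All 10 acinar markers were lower in clusters, with a summed log2 signal of 0.71 and 0.62 in clusters and 11.79 and 12.49 in islets, and Cpa1, Cela2a, Pnlip and Amy2a5 were not well above background in clusters. All 7 endocrine markers were lower as well (summed -0.28 and -0.94 in clusters, 7.26 and 4.70 in islets), with Gcg, Ppy and Iapp not well above background in clusters. Of 7 duct markers 6 were lower, including Krt19 at -5.50 and -4.62 against 7.23 and 6.58. The exception was Spp1, which was higher in clusters (9.31 and 9.08 against 6.26 and 6.17). All 10 stromal markers were higher, summed at 10.72 and 10.46 in clusters and 5.58 and 5.82 in islets, and Twist1 was the only one not well above background in islets. The part of these cell types in the cadherin differences was not tested.

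Of 13 type II cadherins 8 were tested, 3 of them higher in clusters and 5 lower. Cdh11, or OB-cadherin, a cadherin of mesenchymal cells, read 3.53 and 3.31 in clusters and -4.29 and -5.89 in islets. It was 366-fold higher (8.52 ± 0.44, adjusted p = 2.93e-07), the highest fold change of any member tested. The islet level of this probe was well above background on 1 array only. The log2 fold change was 9.31 without islet replicate 1, 7.72 without islet replicate 2 and 5.53 under normexp. Another Cdh11 probe, well above background on all 4 arrays, read -1.31 and -1.42 against -3.60 and -3.67, a log2 fold change of 2.27 ± 0.23. Both probes placed the clusters higher, and they disagreed on the size. Cdh10, a cadherin best known from brain, read 0.95 and 0.71 in clusters and -4.85 and -5.48 in islets. It was at least 51.8-fold higher (6.0 ± 0.28, adjusted p = 1.34e-07, and 3.11 under normexp). Cdh18, another brain cadherin, was not well above background in islets (-3.97 and -3.76 against -4.85 and -5.67) and at least 2.00-fold higher (1.39 ± 0.30, adjusted p = 0.00355). Cdh18 was 1.5 without cluster replicate 1, 1.29 without cluster replicate 2 and 0.98 without islet replicate 2. Under normexp its call was lost (0.02, adjusted p = 0.945).

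Cdh5, or VE-cadherin, the cadherin of endothelial junctions, read -6.82 and -7.04 in clusters and 1.19 and 0.93 in islets. It was not well above background on either cluster array and was at least 77.2-fold lower (-7.99 ± 0.24, adjusted p = 1.30e-08, and -3.35 under normexp). Pcdh12, a protocadherin of endothelial cells, behaved in the same direction. Its readings were -6.82 and -7.25 in clusters and -0.03 and -0.27 in islets, at least 33.4-fold lower (-6.89 ± 0.25, adjusted p = 3.55e-08, and -2.59 under normexp). All 10 endothelial markers were lower, summed at 1.94 and 1.67 in clusters and 4.57 and 4.46 in islets, and Tek, Tie1, Emcn, Robo4 and Sox18 were not well above background in clusters. Among them the VEGF receptor Kdr read 1.63 and 1.31 in clusters and 2.19 and 2.51 in islets. The part of endothelial cells in the Cdh5 and Pcdh12 differences was not tested.

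The other type II cadherins called were lower by less. Cdh22 read -5.55 and -4.82 in clusters, above background on 1 array, and -2.66 and -3.09 in islets (-2.32 ± 0.30, adjusted p = 0.000154, and -0.84 under normexp). Cdh8 read -1.88 and -2.32 against -0.93 and -0.56 (-1.36 ± 0.26, adjusted p = 0.00197), and was -1.17 without islet replicate 2. The other Cdh8 probes were not well above background on any array. Cdh12 read -1.78 and -2.12 against -1.20 and -0.80 (-0.95 ± 0.26, adjusted p = 0.0118). These are cadherins of the nervous system. In each the cluster and islet arrays did not overlap, which is no further support for genes picked by their calls. Cdh12 was -0.77 without cluster replicate 2, -1.14 without islet replicate 1 and -0.75 without islet replicate 2. Cdh6, or K-cadherin, known from kidney, varied most between cluster arrays, at -4.47 and -2.99 against -2.46 and -2.12 (-1.44 ± 0.42, adjusted p = 0.0168). Without cluster replicate 1 it was -0.70, without cluster replicate 2 it was -2.17 and without islet replicate 2 it was -1.27. The call ended under each other scaling tried, with no filter on dim probes, with non-uniform spots kept and with the authors' values (adjusted p between 0.0752 and 0.127). Cdh7, Cdh9, Cdh19, Cdh20 and Cdh24 had no probe well above background on any array.

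**Figure D2:**
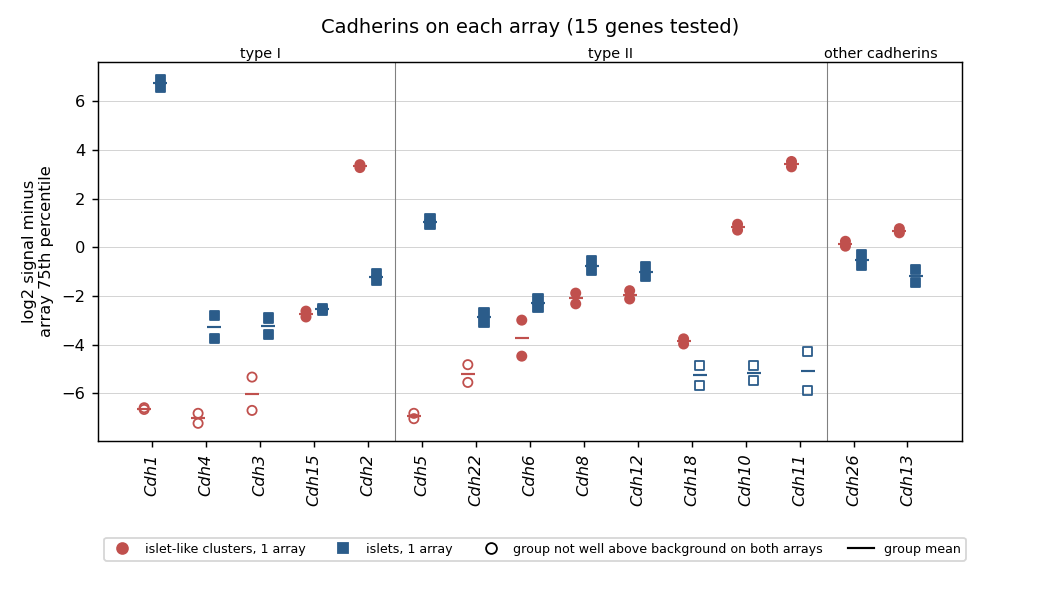
Log2 signal minus the array 75th percentile of the 15 cadherins tested, with 1 point per array, a bar at the group mean and open points where a group was not well above background on both arrays. Cdh1 and Cdh5 are near background in clusters, and Cdh2, Cdh10 and Cdh11 are higher in clusters on both arrays.

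Cdh13, or T-cadherin, which is held by a lipid anchor and binds adiponectin, was 3.64-fold higher in clusters, at 0.77 and 0.60 against -0.92 and -1.44 (1.86 ± 0.26, adjusted p = 0.000245). Cdh26, an epithelial cadherin, read 0.25 and 0.05 against -0.73 and -0.28 and did not pass (0.66 ± 0.25, adjusted p = 0.0522). Cdh16 and Cdh17, the kidney and the liver-intestine cadherin, were well above background on islet replicate 1 only, and Cdh23, a hair-cell cadherin, on no array. These 3 genes were not tested.

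Non-clustered protocadherins fell into a set with low or undetected islet signal and a set that was lower in clusters. Promoter windows from RefSeq on GRCm38.p6 were matched for 22 of the 70 members. The 250 bases before the start site are shown for the 4 higher protocadherins with a log2 fold change above 5, each with an entry, so that these can be seen to differ in CG pairs, which are in capitals. They are Pcdh7 (chr5:57717831-57718080, plus strand), Pcdh18 (chr3:49757317-49757566, minus strand), Pcdh19 (chrX:133688994-133689243, minus strand) and Pcdh20 (chr14:88471397-88471646, minus strand), each written 5′ to 3′ on the strand of the gene.
Pcdh7: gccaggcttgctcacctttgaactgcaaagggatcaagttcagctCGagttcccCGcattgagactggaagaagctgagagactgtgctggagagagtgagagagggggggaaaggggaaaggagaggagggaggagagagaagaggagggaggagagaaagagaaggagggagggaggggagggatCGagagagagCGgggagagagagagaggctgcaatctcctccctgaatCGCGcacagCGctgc
Pcdh18: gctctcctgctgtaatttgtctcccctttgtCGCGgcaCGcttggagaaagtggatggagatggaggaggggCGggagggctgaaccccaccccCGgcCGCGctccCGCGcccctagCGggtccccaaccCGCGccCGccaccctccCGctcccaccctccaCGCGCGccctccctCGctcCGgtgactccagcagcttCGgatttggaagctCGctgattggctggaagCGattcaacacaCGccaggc
Pcdh19: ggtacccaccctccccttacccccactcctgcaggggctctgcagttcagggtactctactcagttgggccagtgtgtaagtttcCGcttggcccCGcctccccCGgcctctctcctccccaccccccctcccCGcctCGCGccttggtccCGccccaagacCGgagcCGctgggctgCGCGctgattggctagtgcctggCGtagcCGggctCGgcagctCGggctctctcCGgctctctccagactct
Pcdh20: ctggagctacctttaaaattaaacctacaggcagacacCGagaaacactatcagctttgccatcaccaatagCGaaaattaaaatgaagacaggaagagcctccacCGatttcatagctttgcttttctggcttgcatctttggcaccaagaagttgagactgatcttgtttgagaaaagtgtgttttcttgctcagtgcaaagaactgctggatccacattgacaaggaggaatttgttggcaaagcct
These windows held 7, 23, 16 and 3 CG pairs in that order, against a median of 6 and quartiles of 2 and 16 over 32851 windows of this length. Over the members matched, the 7 higher had a median of 8 CG pairs (2 to 23) and the 6 lower, Pcdh9 among them, a median of 19 (6 to 30), a difference that was not tested. The letters CACCTG on either strand, an E-box that Snail and Zeb repressors can bind, occurred in none of the 7 higher and none of the 6 lower members matched, in 2 of all 22 matched (Cdh7 and Pcdh15) and in 17.2% of all windows. Cdh1, Cdh2, Cdh3, Cdh5 and Cdh11 were not among the members matched, and neither was any clustered protocadherin. These CG and E-box counts therefore do not cover the clustered class. TATAAA (either strand) was in none of the 4 windows shown and in 12.4% of all windows.

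Pcdh7, Pcdh18, Pcdh19 and Pcdh20 were high on both cluster arrays and low on both islet arrays. Pcdh19, a delta-2 protocadherin that pairs with N-cadherin and whose human gene is known from epilepsy, was the one of these well above background on every array. It read 3.01 and 2.78 in clusters and -2.96 and -3.06 in islets, 60.1-fold higher (5.91 ± 0.23, adjusted p = 5.29e-08, and 4.57 under normexp). Pcdh18, another delta-2 member, read 0.95 and 0.80 against -5.42 and -5.57, at least 64.8-fold higher (6.37 ± 0.23, adjusted p = 3.30e-08). Pcdh20, which belongs to neither delta group here, read -0.09 and -0.40 against -7.17 and -6.75, at least 35-fold higher (6.71 ± 0.26, adjusted p = 4.46e-08). In none of these genes did the cluster and islet arrays overlap, but they were picked by their calls, so this is no further support. Under normexp Pcdh18 was 3.13 and Pcdh20 was 2.38. Pcdh7, a delta-1 protocadherin, had 3 probes tested. The probe that represents it read 0.93 and 0.73 against -5.58 and -5.89, at least 66.6-fold higher (6.57 ± 0.24, adjusted p = 3.61e-08, and 3.02 under normexp). Its other probes gave 7.74 and 2.26, so all 3 agreed in direction. Pcdh10, a delta-2 member that recruits the actin-regulating WAVE complex, read -3.46 and -3.24 against -6.66 and -6.79 (3.38 ± 0.23, adjusted p = 2.03e-06) and was at least 4.06-fold higher. Its other probe gave 2.02, and under normexp the call was lost (0.37, adjusted p = 0.193).

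Pcdh1, Pcdh11x and Pcdh17 were lower in clusters by less. Pcdh1, an epithelial protocadherin, read 1.84 and 1.58 against 2.46 and 2.47 (-0.75 ± 0.23, adjusted p = 0.0217). It was -0.62 without cluster replicate 2, -0.76 without islet replicate 1 and -0.75 without islet replicate 2. Its call was lost with no filter on dim probes (adjusted p = 0.0691). Pcdh11x, X-linked like Pcdh19, read -0.51 and -0.66 against 0.25 and 0.46 (-0.94 ± 0.23, adjusted p = 0.00740). Without cluster replicate 2, islet replicate 1 and islet replicate 2 in turn it was -0.87, -1.05 and -0.84. This probe is listed only with cDNA and clone entries that matched no gene of the RefSeq table, and the 2 probes listed with Pcdh11x transcripts of RefSeq were not well above background on any array. Pcdh17, a delta-2 member and the only one of that group lower in clusters, read -2.88 and -3.08 against -0.89 and -1.72 (-1.68 ± 0.30, adjusted p = 0.00124). It was -1.0 under normexp, and without islet replicate 1 it was -1.26. In each of these 3 genes the cluster and islet arrays did not overlap, which again follows largely from picking called genes.

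Pcdh9 had probes called in opposite directions in the fit over probes, in which 53.2% of 34974 probes were called. The representing probe (mm9 chr14:93959696-93959755, listed with NM_001081377) read -4.26 and -4.62 in clusters and -2.91 and -1.74 in islets (-2.11 ± 0.37, adjusted p = 0.000979). Another probe (mm9 chr14:93413428-93413487, listed with NM_001271798) read -2.37 and -2.49 in clusters and -7.06 and -6.67 in islets, not above background there (4.44 ± 0.25, adjusted p = 3.15e-06 over probes). The gene therefore had no common direction, and the mean of its probes gave 1.16. For the first probe, leaving out cluster replicate 2 gave -1.93, and leaving out islet replicate 1 gave -2.70. Pcdh15, of the hair-cell tip link, did not pass at its representing probe (0.40 ± 0.29, adjusted p = 0.260), while another probe was lower (-1.57 ± 0.26, adjusted p = 0.00138 over probes). Probes of these genes lie at different positions and are listed with different transcripts, and whether they read different transcripts was not tested. Pcdh8, a delta-2 member, had no probe well above background.

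**Figure D3:**
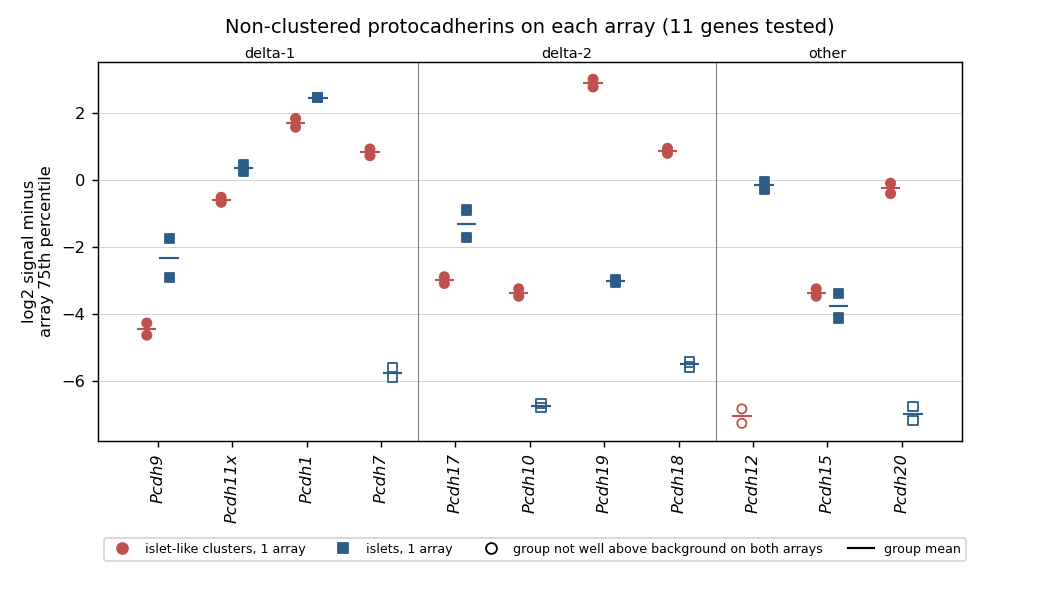
Log2 signal minus the array 75th percentile of the 11 non-clustered protocadherins tested, with 1 point per array, a bar at the group mean and open points where a group was not well above background on both arrays. Pcdh7, Pcdh10, Pcdh18 and Pcdh20 are well above background in clusters and not in islets, and Pcdh12 shows the opposite.

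**Figure D4:**
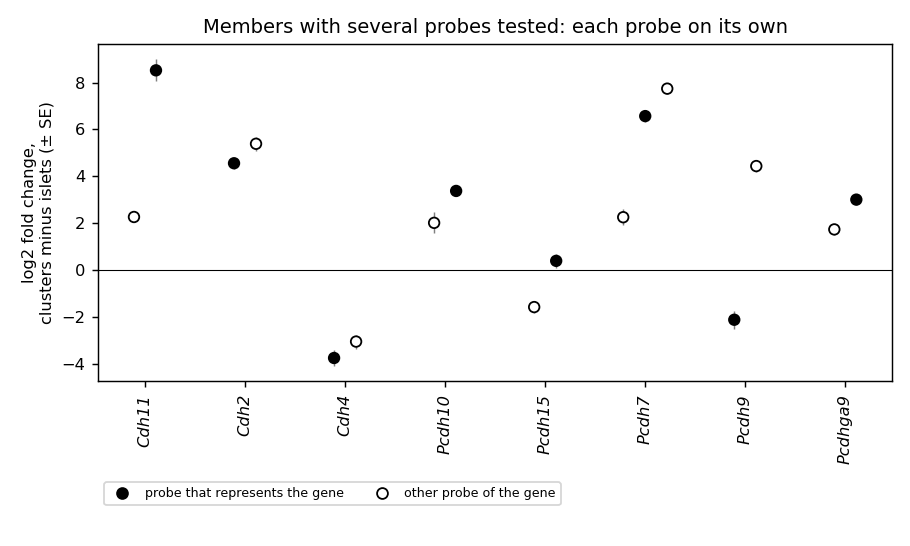
Log2 fold change (clusters minus islets, ± SE, probe-level limma fit) of each tested probe for the 8 members with several tested probes, with filled points for the probe that represents the gene. Pcdh9 and Pcdh15 have probes on both sides of 0, and the other 6 genes have all probes on the same side.

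Clustered protocadherins were higher in clusters mainly within Pcdhb. Of 22 Pcdhb genes 15 were tested, 10 higher, 1 lower and 4 not passed, and their median was 3.21 (2.74 with bounded genes at their bounds). The 4 Pcdhb genes with the largest called fold changes were Pcdhb17, Pcdhb20, Pcdhb16 and Pcdhb18. Pcdhb17 read 1.41 and 1.50 in clusters and -2.32 and -3.49 in islets (4.37 ± 0.36, adjusted p = 6.37e-06). Pcdhb20 read 1.15 and 0.96 against -2.29 and -3.35 (3.87 ± 0.34, adjusted p = 1.04e-05). Both had cluster arrays close together and islet arrays about 1 log2 unit apart. Pcdhb16 read -0.45 and -0.72 against -4.36 and -4.17 (3.68 ± 0.24, adjusted p = 1.34e-06). Pcdhb18 read 1.53 and 1.28 against -1.64 and -2.61 (3.53 ± 0.33, adjusted p = 1.54e-05). All 4 were well above background on every array, and under normexp they were 3.08, 2.62, 1.75 and 2.66 in that order. Without islet replicate 2 Pcdhb17 was 3.78.

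Along the locus the higher Pcdhb genes lay together at the end nearest to Pcdhg. Among Pcdhb14 to Pcdhb22 all 8 genes tested were higher, with a median of 3.46, and only Pcdhb19 was not tested, being above background on cluster replicate 2 alone. Among Pcdhb1 to Pcdhb13 there were 7 tested, of which 2 were higher, 1 lower and 4 not passed, with a median of -0.04. The division between these runs was drawn after the values were seen, and it was not tested. The other genes of the distal run, named here for completeness, were Pcdhb21 (3.38, and 2.66 under normexp), Pcdhb22 (3.36, and 2.64), Pcdhb14 (3.21, and 1.12) and Pcdhb15 (1.19). In islets Pcdhb14 and Pcdhb15 were each well above background on 1 array only. Pcdhb15 was 1.19 without islet replicate 1 and 1.2 without islet replicate 2. Its call was lost under normexp (0.16, adjusted p = 0.589). In the proximal run the higher genes were Pcdhb3 (3.26, at least 6.33-fold, and 0.63 under normexp) and Pcdhb6 (2.74, and 1.75).

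Pcdhb8 was the only clustered gene lower in clusters, at -5.47 and -5.90 against -4.89 and -4.14, and no cluster array was above background. It was at least 1.62-fold lower (-1.17 ± 0.30, adjusted p = 0.00958). It was -1.38 without cluster replicate 1, -0.95 without cluster replicate 2 and -0.79 without islet replicate 2. Under normexp the call was lost (-0.34, adjusted p = 0.238). Pcdhb1, Pcdhb4, Pcdhb7 and Pcdhb12 did not pass, with log2 fold changes between -0.57 and 0.21. Pcdhb12 was well above background on all arrays at similar levels, -1.08 and -1.25 against -1.05 and -0.74. Pcdhb2, Pcdhb5, Pcdhb9, Pcdhb11 and Pcdhb13 had no signal well above background, and Pcdhb10 had one on islet replicate 1 only. Pcdhb genes are close paralogs, and the extent to which a probe reads a neighbouring gene was not tested.

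The islet arrays differed from each other for the higher Pcdhb genes. In 8 of these 10 genes islet replicate 1 read above islet replicate 2, with a median gap of 0.91 (range -0.19 to 1.17). Over all genes tested the median gap was -0.02, and 11757 of 24596 read higher on islet replicate 1. The cluster arrays differed by a median of 0.24, near the 0.22 of all genes. Every one of the 10 was higher on both cluster arrays than on either islet array. They were chosen as called higher, so this separation is no further support, and its share over all genes was not computed. Islet replicate 1 also had more endocrine signal, with Ins2 at 5.45 against 2.86 on islet replicate 2. Whether the makeup of the islet samples bears on this gap was not tested.

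**Figure D5:**
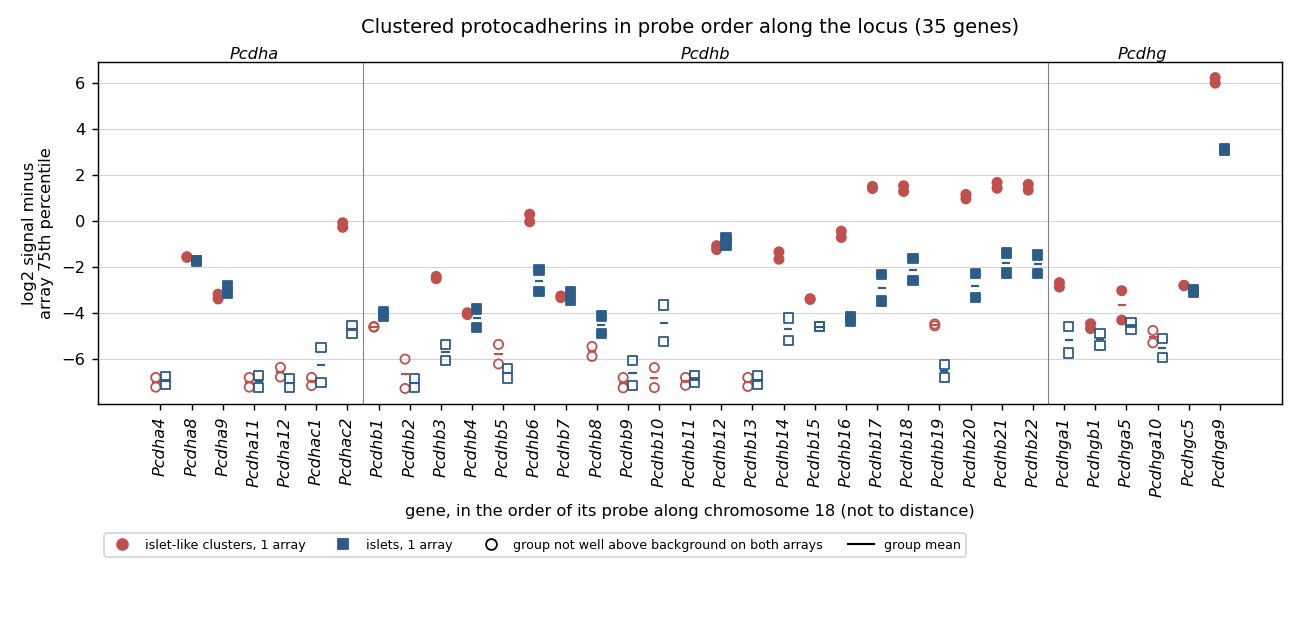
Log2 signal minus the array 75th percentile of the 35 clustered protocadherins, in the order of their probes along chromosome 18 and not to distance, with 1 point per array, a bar at the group mean and open points where a group was not well above background on both arrays. From Pcdhb14 to Pcdhb22 the cluster points lie above the islet points.

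Some Pcdha and Pcdhg probes were listed with several genes, and most were listed with 1. The Pcdhac2 probe read -0.08 and -0.28 in clusters and -4.92 and -4.54 in islets (4.55 ± 0.25, adjusted p = 4.08e-07, and 2.11 under normexp), the largest fold change of the clustered genes. The islet level of this probe was well above background on 1 array only. The probe's listed accessions belong to Pcdha4, Pcdha9, Pcdhac1 and Pcdhac2, and the files list at most 4 accessions per probe, so it may read further transcripts. A probe listed with Pcdhac2 alone was not above background on any array. The probe that represents Pcdha8 did not pass (0.16, adjusted p = 0.581). It is listed with Pcdha4, Pcdha7, Pcdha8 and Gm37013, and the probe listed with Pcdha8 alone was not well above background on any array. Pcdha9, read by a probe listed with that gene alone, did not pass (-0.32, adjusted p = 0.285), and Pcdha4, Pcdha11, Pcdha12 and Pcdhac1 had no signal above background. The Pcdhac2 value therefore cannot be given to that gene alone.

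Pcdhga9, named after its values were seen, was likewise read by a shared probe, listed with Pcdhga1, Pcdhga5, Pcdhga6 and Pcdhga9. It was 8.03-fold higher, at 6.24 and 6.0 in clusters and 3.16 and 3.06 in islets (3.01 ± 0.23, adjusted p = 4.57e-06), and a second shared probe gave 1.74. Of 5 Pcdhg genes tested 2 were higher, the other being Pcdhga1 at 2.40, which lost the call under normexp (0.47, adjusted p = 0.0862). In islets Pcdhga1 was well above background on 1 array only. Pcdhga5 (0.90, adjusted p = 0.0739), Pcdhgb1 (0.57, adjusted p = 0.0896) and Pcdhgc5 (0.23, adjusted p = 0.416) did not pass. Pcdhga10 was above background on 1 cluster array and was not tested.

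Partners of the classical cadherins were mostly lower in clusters. Of 13 catenins and plaque proteins tested 9 were lower, 1 was higher and 3 did not pass, with a median of -0.98 against -0.10 for all genes. Ctnnd1 changed most (-5.86 ± 0.25, adjusted p = 8.97e-08), at a representing probe that was not well above background on either cluster array (-6.82 and -7.29). Another of its 3 probes was well above background on 1 cluster array, so this size is that of 1 dim probe. Jup, or plakoglobin, read -4.37 and -4.55 against -1.10 and -0.65 (-3.59 ± 0.25, adjusted p = 2.27e-06), and the scaffold Magi1 was also lower (-1.97 ± 0.23). The higher gene was Ctnnd2, at least 1.42-fold (0.99 ± 0.30, adjusted p = 0.0198). Ctnnb1, the beta-catenin that binds both Cdh1 and Cdh2, did not pass (-0.41 ± 0.24, adjusted p = 0.168). Of 5 nectins, which help to start cadherin junctions, Pvrl3 (3.29) and Pvrl1 (2.45) were higher and 3 were lower, led by Pvrl4 (-3.58). Among 16 giant, 7-pass and related cadherins 6 were higher, led by Clstn2 (9.21), and 5 lower, led by Celsr1 (-8.65), a planar polarity gene. Of 9 genes for cadherin cleavage 1 was higher (Adam15, 1.68), 3 were lower, led by the sheddase Adam10 (-1.36), and 5 did not pass. Beside these lists, 54.8% of all genes tested were called, 26.6% higher and 28.2% lower. The counts were not tested against that share.

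Repressors of cadherin genes were mostly higher in clusters. Of 10 tested 8 were higher and 2 lower, with a median of 4.36. Twist1 was at least 261-fold higher (8.73 ± 0.24), Snai2 was 263-fold higher (8.04 ± 0.23) and Zeb2 was 59.0-fold higher (5.88 ± 0.23), each a known repressor of Cdh1. Klf8 was lower (-3.65), and Snai3, not well above background in clusters, was at least 3.34-fold lower. Twist1 is also in the list of stromal markers. Of 12 regulators of the clustered protocadherins 6 were higher, 2 lower and 4 did not pass, with a median of 0.56. Of all genes tested 54.8% were called, 26.6% higher and 28.2% lower, and no list was tested against that share. The cohesin subunits Stag1 (1.24) and Stag2 (1.08) and the maintenance DNA methyltransferase Dnmt1 (1.00) were higher, and Dnmt3b, which methylates their promoters, was lower (-2.37 ± 0.23, adjusted p = 2.30e-05). Ctcf, whose binding sites lie at these promoters, did not pass (0.35 ± 0.23, adjusted p = 0.223). Of 15 protocadherin signalling partners 6 were higher, 4 lower and 5 did not pass. Within the WAVE complex Abi2 (2.71) and Wasf1 (2.66) were higher and Cyfip2 (-5.07) was lower.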

How the data were processed

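Signal was measured on 4 one-colour Agilent mouse arrays (2 islet-like clusters, 2 islets), and groups and replicate numbers were taken from the sample titles. The deposited intensity values come from Agilent Feature Extraction 11.5.1.1, per the file headers, as background-subtracted and detrended signals, with probe positions on mm9. The table of log2 values deposited by the authors correlated with the scanner values of the same arrays at r = 0.99995 or higher. It is scaled per array and not centred per gene (column medians -3.61 and -3.70 for clusters, -3.50 and -3.37 for islets), and served as an alternative only.

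Here, the processed signal was put on the log2 scale and the 75th percentile of its array was subtracted. Control and non-uniform spots were dropped, which left 490 probes without a value, and spots of a probe were averaged. The 34974 probes kept were well above background on both cluster arrays, both islet arrays or all of these, and a gene was represented by its brightest probe on average. Gene-level fits used lmFit and eBayes of limma 3.58.1 (R 4.3.3) without covariates, with 2-sided tests and 9.06 total degrees of freedom, with Benjamini-Hochberg adjustment over 24596 genes. Probe-level fits adjusted over 34974 probes. The fit was tested on simulated data. A bound sets the bright group's mean against the dim group's mean, per array, of the higher of the probe's own signal and the lowest signal of a probe well above background. The number of arrays limits the precision.

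Named genes were every called cadherin and non-clustered protocadherin, the 5 largest called clustered genes per direction, up to 3 called partners and up to 2 bright markers per list, and members with probes called in opposite directions. Members and lists were chosen with earlier results of these data known. Promoter windows came from the RefSeq table (GRCm38.p6). No gene annotation of mm9 was used here, so exon or UTR positions of probes are not given. Alternatives covered the background correction, scaling, dim-probe filter, probe summary, authors' values, replicate block and leaving out each array.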

Additional observations from a re-analysis of the deposited data

How the results depend on the processing

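Leaving out 1 array at a time (the lone array then assumed to vary like the others) gave 7650 to 10120 genes called in all, with 8266 without islet replicate 1 and 7650 without islet replicate 2. It gave 8 to 11 classical, 12 to 14 clustered and 7 to 10 non-clustered members called, with class medians of -1.54 to -1.12, 1.83 to 2.96 and 0.04 to 0.76 in that order. When only probes well detected on all 4 arrays were tested, 5 classical, 8 clustered and 5 non-clustered members were called, of 6, 14 and 6 tested. The class medians were then -0.57, 2.87 and -0.85. The median of classical cadherins was -0.68 under normexp and -0.26 when dim probes were not filtered. That of clustered protocadherins was 0.47 under normexp, 0.49 with no filter, 1.96 with a floor for dim signals and 1.60 with the authors' values, and 2.59, 2.21 and 2.58 under scaling to the array median, scaling to probes detected throughout and quantile normalization. That of non-clustered protocadherins was -0.02 under normexp, 0.17 with no filter, 1.16 with the mean of a gene's probes, and 0.60, 0.21 and 0.59 under those 3 scalings. The cause of these shifts was not tested. Among single genes Pcdh9 turned with the mean of probes (1.16) or its other probe (4.44), and Pcdh15 with its other probe (-1.57). Normexp moved the fold of 30 of the 37 called members by over 1.5 times and ended 5 calls, a floor for dim signals moved 8 and ended none, and the mean of a gene's probes moved 5. Arrays of the same replicate number shared no visible deviation (correlation of deviations -0.0235), which cannot tell whether the samples were paired. With the number as a replicate block 11307 genes were called in all, with 11 classical, 13 clustered and 10 non-clustered members, and Cdh12 (adjusted p = 0.0586) and Pcdhb8 (adjusted p = 0.0705) lost their calls.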
